A study of Mus musculus with 121 samples.

Results

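Late granulocyte maturation was described here from cells of the states Myelo-2 and Myelo-4, which are 2 of the 12 state names in the authors' deposited annotation of these cells. In the run named 073117, 7 cells carried the name Myelo-4 and 11 the name Myelo-2, among the 46 cells of that run and 121 in the series. A further 10 cells, 3 Myelo-4 and 7 Myelo-2, came from the 13 GMP cells of the runs named July31 and Jul31_2017, called late July GMP below. They served to look up the direction of each difference. Of these, 1 Myelo-4 and 6 Myelo-2 cells are of July31 and 2 Myelo-4 and 1 Myelo-2 of Jul31_2017, so late July differences between the states are in part differences between those runs. Each of the 28 cells was deposited as a sample of its own.

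The cells came from bone marrow of C57BL/6 mice with the R412X allele of Gfi1, a genotype the labels give as Gfi1-R412X/- and, in the titles, as HTZ. Cells of the 073117 run are labelled CD11b+ GMP-P and those of late July are labelled GMP, so run and population cannot be told apart. Crushed hindlimb marrow was enriched on CD117 (Kit) microbeads, stained and sorted, and single cells were lysed and reverse transcribed on the Fluidigm C1, a microfluidic chip that isolates one cell per chamber. No treatment, age or animal is named in the labels, every cell carries the mutant allele, and cells with unmutated Gfi1 were not analysed here. No comparison below therefore measures the mutation, and each population counts as 1 sample whose cells are not replicates. The method behind the state names is not stated in the labels, and the names may rest on these same values, so differences between them are given as descriptions without a test.

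Neutrophils form in the marrow through stages at which they make their granules in waves. Primary (azurophil) granule proteins such as myeloperoxidase and the serine proteases are made first, secondary (specific) granule proteins such as lactoferrin follow, and gelatinase granules, surface receptors and the machinery of motility come last. Division ends around the time the secondary granules are filled, and the nucleus then condenses and becomes segmented. Gfi1 is a zinc finger repressor that neutrophil production requires.

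Values are log2(TPM + 1), where TPM is the transcript abundance scaled to the same total in every cell, and a difference is the mean over Myelo-4 cells minus the mean over Myelo-2 cells of a run. Detection of a gene means a TPM no lower than 1. Of 23946 genes, 2984 reached that in 30% or more of the Myelo-4 or the Myelo-2 cells of the 073117 run and were compared, and the counts below are of differences of 2 or more either way. Genes with near-identical copies, such as Ly6g, Lyz1, Lyz2, Csf2rb, the stefins, the schlafens and the tubulins, may share reads in the authors' estimates, and their values are uncertain. Over the 2984 genes Myelo-4 was higher by 2 or more for 157 (5.26%) and lower by 2 or more for 688 (23.1%). The median difference was −0.89, and it was −0.89 for the same genes in late July GMP.

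Those counts go with how many genes were found in a cell. Myelo-4 cells had 1304 to 2079 detected genes with a median of 1642, and Myelo-2 cells had 1509 to 3364 with a median of 2261. The 20 most abundant genes of a cell took 61.1% to 68.1% of its TPM in Myelo-4 and 35.2% to 63.5% in Myelo-2. Among late July cells the 3 Myelo-4 had 1436, 1879 and 2133 detected genes, and the Myelo-2 cells 2032 to 3659 with a median of 2570. The sequencing depth is unknown, and fewer transcripts per cell and less efficient capture cannot be told apart. Of the genes compared, 1369 passed the filter through Myelo-2 cells alone and 311 through Myelo-4 cells alone, so a list of genes that passed in this way had to differ. Values from cells of like gene number, the 5 Myelo-4 and 5 Myelo-2 cells with 1509 to 2079 detected genes, are therefore given beside the main ones, and in them the median over the 2984 genes was −0.26.

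The maturity of both states was first checked on 4 markers of the late granulocyte series. Ltf encodes lactoferrin, the iron-binding protein of secondary granules. It was found in every cell, at 13.73 to 15.09 (median 14.46) in Myelo-4 and 5.36 to 14.82 (median 13.64) in Myelo-2 of the 073117 run, and at 13.76, 13.92 and 14.05 in Myelo-4 and 11.10 to 14.67 in Myelo-2 of late July GMP. The states overlapped widely, and the difference of 1.46 was 0.70 without Myelo-2 cell 95, the one cell at 5.36. Itgam, the CD11b chain of the integrin Mac-1, was likewise found in every cell, at 7.32 to 9.84 (median 8.25) in Myelo-4 and 3.90 to 9.54 (median 7.42) in Myelo-2. Its difference was 1.25, and 0.65 in late July GMP. Itgb2, the other chain of Mac-1, was lower in Myelo-4 of the 073117 run. Its difference was −3.20 to −1.73 as each cell was left out in turn.

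Ly6g, the surface antigen by which mouse neutrophils are usually recognised, was found in a larger share of Myelo-4 cells in the 073117 run but not in late July GMP. It was detected in 5 of 7 Myelo-4 cells (71.4%, exact 95% interval 29% to 96.3%) and 3 of 11 Myelo-2 cells (27.3%, 6.02% to 61%), at up to 9.83 and 10.39. The 3 Myelo-2 cells were cells 68, 90 and 88, at 6.16, 8.45 and 10.39, and the other 8 were at 0. In late July GMP 1 of 3 Myelo-4 cells reached 9.44 and the other 2 were at 0, while 4 of 7 Myelo-2 cells had it, at up to 6.85. Retnlg, a resistin-like protein of gelatinase granules, was either high or low in the cells of both states. In Myelo-4 cells 60 and 49 were at 1.55 and 1.84 and the other 5 between 8.96 and 13.59. In Myelo-2 5 cells were at 0 to 1.59 and 6 between 7.74 and 13.68. The difference of means was 2.61 for Ly6g and 3.34 for Retnlg, with 1.5 and 1.79 in late July GMP.

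Of the genes used to sort progenitors, Kit, Cd34 and Flt3 were detected in few cells or none, although the labels call the cells GMP or GMP-P. Kit, the receptor that the beads bind, was detected in 1 of 7 Myelo-4 and 2 of 11 Myelo-2 cells, and in 1 of 3 and 3 of 7 in late July GMP, at up to 8.05 in a Myelo-2 cell. Cd34 was detected in none of the 18 cells of the 073117 run, which allows a share of up to 42.9% of Myelo-4 and 27.3% of Myelo-2 cells by the 3-cell limit. Of the late July cells, 2 of 7 Myelo-2 had it, at up to 7.46, and 0 of 3 Myelo-4. Flt3 was detected in none of the 28 cells. Fcgr3, an Fc receptor found on GMP, was present in most, with group means from 5.81 to 8.47. Among markers of other lineages no member of the lists for B lineage, dendritic, erythroid or megakaryocyte cells passed the filter, and no B lineage or erythroid member was detected in any of the 18 cells of the 073117 run. The 20 monocyte markers measured took up to 0.282% of the TPM in Myelo-4 and up to 0.407% in Myelo-2. Basophil and mast cell markers took up to 0.416% and 0.248%, and T and NK cell markers up to 0.0774% and 0.398%. Members of these 3 lists were detected in most cells of both states, and their part in the differences was not tested.

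**Figure D1:**
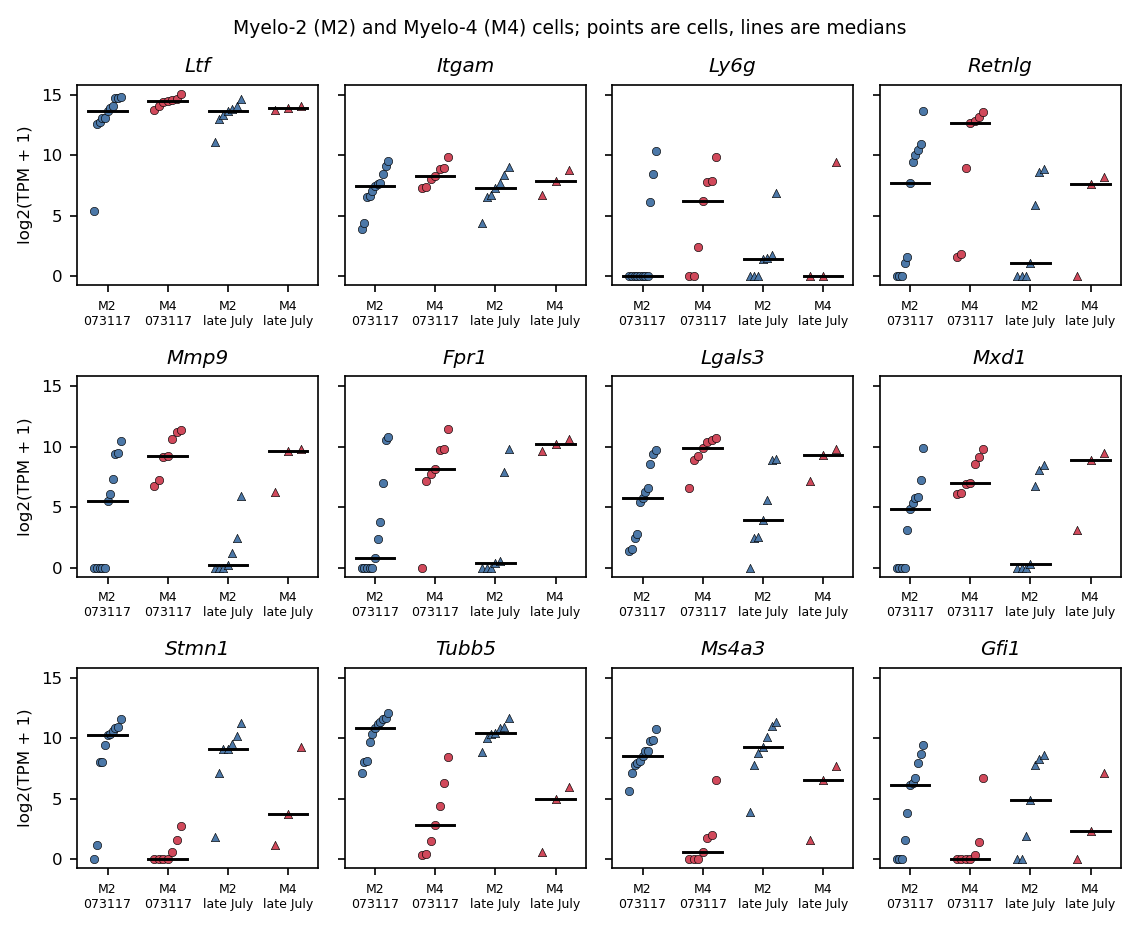
Per-cell log2(TPM + 1) of 12 genes in the 4 groups of cells: Myelo-2 (blue) and Myelo-4 (red) of the 073117 run (circles, 11 and 7 cells) and of late July GMP (triangles, 7 and 3 cells). Points are single cells and horizontal lines are medians. Itgam, Mmp9, Fpr1, Lgals3 and Mxd1 have higher medians in Myelo-4 in both runs and Stmn1, Tubb5, Ms4a3 and Gfi1 lower ones. In the 073117 run the states overlap for every gene shown.

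The promoters of Retnlg and Ltf are shown because C/EBP factors, which bind TTGCNNAA, are the textbook regulators of secondary and gelatinase granule genes, and that of Ms4a3 because the same letters stand just after the start of a gene that was lower in Myelo-4. Each runs from 250 bases before to 50 after the start in RefSeq, build GRCm38.p6, on the gene's strand. Retnlg lies at chr16:48872358-48872657 on the plus strand, Ltf at chr9:111019042-111019341 on the plus strand and Ms4a3 at chr19:11640802-11641101 on the minus strand. Capitals mark TTGCNNAA read on either strand. The promoters of Fpr1 and Mxd1, which were also higher in Myelo-4, were searched in the same way. They held no match and are not printed.
Retnlg: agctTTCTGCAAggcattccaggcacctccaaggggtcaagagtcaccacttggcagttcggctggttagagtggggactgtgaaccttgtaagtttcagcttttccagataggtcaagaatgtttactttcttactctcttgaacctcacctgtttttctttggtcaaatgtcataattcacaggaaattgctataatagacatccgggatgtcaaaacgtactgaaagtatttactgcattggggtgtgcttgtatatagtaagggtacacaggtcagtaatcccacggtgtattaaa
Ltf: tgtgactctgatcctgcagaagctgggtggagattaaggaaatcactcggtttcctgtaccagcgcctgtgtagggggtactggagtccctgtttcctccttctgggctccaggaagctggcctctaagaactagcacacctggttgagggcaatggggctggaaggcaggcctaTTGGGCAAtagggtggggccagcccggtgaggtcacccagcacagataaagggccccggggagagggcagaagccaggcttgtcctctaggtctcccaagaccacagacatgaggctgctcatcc
Ms4a3: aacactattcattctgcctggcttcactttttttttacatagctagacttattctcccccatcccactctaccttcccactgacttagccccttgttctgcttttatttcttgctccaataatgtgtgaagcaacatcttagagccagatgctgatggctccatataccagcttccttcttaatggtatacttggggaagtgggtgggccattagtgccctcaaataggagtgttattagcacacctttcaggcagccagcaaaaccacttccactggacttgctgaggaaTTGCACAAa
TTGCNNAA was present in 10.8% of all 32851 promoters in the RefSeq table, in 9.62% of those of the genes compared, in 13.1% of the 145 promoters of genes higher by 2 or more and in 8.27% of the 653 of genes lower by 2 or more. It was found in 3 of 8 promoters of the gelatinase granule genes compared. A match is a description of these letters only.

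In the 073117 run gelatinase granule genes had the highest median difference among the lists with 5 or more members compared. Of 15 members measured, 8 were compared. All 8 were higher in Myelo-4 in the 073117 run, 4 of them by 2 or more (50%). Of all genes compared, 30.1% were higher by any size and 5.26% by 2 or more. The median difference of the 8 was 1.93 against −0.89 for all genes. In cells of like gene number it was 2.06, again with 8 of 8 higher, beside 43.8% of all genes. By 2 or more 4 were higher there (50%, beside 12.3% of all genes). Of the same 8, 5 were higher in late July GMP, where 29% of all genes were, and the median was 0.86. It became −0.31 without the Myelo-4 cell 94 of July31, so the late July value rests on that cell. Of the 8, 2 had passed the filter through Myelo-4 cells alone, and over all 15 members the mean difference was 1.26, and 0.11 in late July GMP.

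Mmp9, the gelatinase that gives the granule its name, led the list. It was detected in all 7 Myelo-4 cells, at 6.75 to 11.36 with a median of 9.22, and in 6 of 11 Myelo-2 cells, at 0 to 10.48 with a median of 5.51. In late July GMP the Myelo-4 cells were at 6.28, 9.63 and 9.85 and the Myelo-2 cells at 0 to 5.94. In the 073117 run Myelo-2 cells 86, 69, 68 and 90, at 7.34, 9.37, 9.51 and 10.48, lay in the Myelo-4 range. The difference was 4.97 (mean 9.36 ± 1.85, SD over 7 cells, against 4.39 ± 4.44 over 11), and 7.18 in late July GMP. Ceacam10, a secreted carcinoembryonic antigen family member, had a difference of 2.96 (1.06 in late July GMP). Mmp8, neutrophil collagenase, had one of 0.85 (1.31). Adam8, a membrane metalloprotease, and Cfp, the complement factor properdin, were higher in the 073117 run, with differences of 2.03 and 1.83, and lower in late July GMP, with −1.81 and −3.57. Adam8 was at 1.12 without Myelo-4 cell 74, and Cfp at 0.83 without cell 60.

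Receptor and adhesion genes differed in both directions. Of 57 receptor and adhesion genes measured, 42 were compared, and 6 were higher and 4 lower by 2 or more, with a median of 0.15. That is 14.3% and 9.52% of those compared, beside 5.26% and 23.1% of all genes. Their late July median was −0.26, with 6 higher (14.3%) and 9 lower (21.4%) by 2 or more, beside 6.97% and 25.9% of all genes. The formyl peptide receptor Fpr1, by which neutrophils sense bacterial and mitochondrial peptides, was detected in 6 of 7 Myelo-4 cells, at up to 11.49 with a median of 8.17. In Myelo-2 it was detected in 5 of 11 cells, at up to 10.78 with a median of 0.83. In late July GMP the Myelo-4 cells were at 9.69, 10.27 and 10.67, and 5 of the 7 Myelo-2 cells were below 1 with the others at 7.89 and 9.79. All but one Myelo-4 cell of the 073117 run (cell 56, at 0) therefore held Fpr1 at a high level, and the difference was 4.52, and 7.55 in late July GMP.

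Clec4e, the lectin Mincle that recognises fungal and mycobacterial glycolipids, was detected in 5 of 7 Myelo-4 and 2 of 11 Myelo-2 cells, with a difference of 3.77 (0.93 in late July GMP). Selplg, the selectin ligand PSGL-1, had a difference of 3.66 but −0.61 in late July GMP. Cxcr2, the chemokine receptor that draws neutrophils out of the marrow, was chosen after its values were seen. It had a difference of 2.38, with 10.83 in its highest Myelo-4 cell, and 0.35 in late July GMP. The receptors that were lower include Clec12a, an inhibitory lectin of myeloid cells, at 0.28 to 8.05 (median 4.91) in Myelo-4 against 5.38 to 10.60 (median 8.91) in Myelo-2. Csf2rb, the common beta chain of the GM-CSF, IL-3 and IL-5 receptors, was at 0 to 7.92 (median 0.12) against 0.12 to 9.37 (median 6.92). Differences were −4.28 and −3.56, and −3.01 and −1.39 in late July GMP. Csf3r, the G-CSF receptor, also chosen after its values were seen, had a difference of −0.01, with 4.47 ± 3.5 (SD, 7 cells) against 4.48 ± 3.61 (11 cells). Its late July difference was −3.44, with detection in 1 of 3 Myelo-4 and 7 of 7 Myelo-2 cells.

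Several other genes were higher in Myelo-4 in both runs. For Lgals3, St3gal5 and Slfn1 this was set by the choice, because the rule that named them asked for the same sign in both. Of all genes higher by 2 or more in the 073117 run, 44.6% were also higher in late July GMP. Lgals3, the galactose-binding lectin galectin-3, was at 6.57 to 10.76 (median 9.88) in Myelo-4 and 1.38 to 9.75 (median 5.77) in Myelo-2, and at 7.16, 9.32 and 9.78 against 0 to 8.95 in late July GMP. Of the Myelo-2 cells of the 073117 run, 88, 86 and 90 were the highest, at 8.54, 9.40 and 9.75, and the other 8 lay at or below 6.57, the value of the lowest Myelo-4 cell. Differences were 4.03 and 4.12. Mxd1, a MAX partner that opposes MYC, was detected in all 7 Myelo-4 cells at 6.11 to 9.83 (median 7.04) and in 7 of 11 Myelo-2 cells at 0 to 9.94 (median 4.82). Its difference was 3.86, and 3.79 in late July GMP, where the Myelo-4 cells were at 3.09, 8.93 and 9.46.

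St3gal5, the sialyltransferase that makes the ganglioside GM3, had differences of 4.56 and 2.49 in the 073117 run and late July GMP, and Slfn1, a Schlafen family member linked to growth arrest of lymphocytes, 4.04 and 6.32. Slfn1 was at 7.45, 7.48 and 8.71 in the late July Myelo-4 cells and at 0 in 5 of the 7 Myelo-2 cells, with the other 2 at 5.28 and 5.66. Padi4, which deiminates histones when neutrophils release chromatin traps, was detected in 7 of 7 Myelo-4 and 5 of 11 Myelo-2 cells, with differences of 3.28 and 0.75. Rac1, a GTPase that acts in the oxidase and in cell migration, had differences of 3.20 and 2.04. Fth1, the ferritin heavy chain, was abundant in both states, at 11.41 to 13.24 in Myelo-4 and 7.86 to 12.41 in Myelo-2, with differences of 1.61 and 1.78. The interferon-induced membrane protein gene Ifitm6 was at 11.36 to 12.59 against 5.97 to 12.28, with differences of 2.17 and 2.66.

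The oxidase that makes superoxide in phagosomes did not follow Rac1 as a group. All 8 of its genes were compared, with 5 higher (62.5%, beside 30.1% of all genes) and 3 lower (37.5%, beside 69.9%). Rac1 alone was higher by 2 or more (12.5%, beside 5.26%), and none was lower by 2 or more (beside 23.1%). Cybb and Cyba, the membrane subunits, had differences of 0.46 each, and the soluble subunits Ncf1 and Ncf4 of 0.73 and −1.38. Ncf4 was at −0.28 without Myelo-4 cell 49. The list's median was 0.46 in the 073117 run and −0.56 in late July GMP, beside −0.89 for all genes in both.

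Most primary granule genes were lower in Myelo-4 of the 073117 run. Of 18 members measured, 14 were compared, 12 were lower (85.7%, beside 69.9% of all genes) and 6 by 2 or more (42.9%, beside 23.1%), with a median of −1.89. In cells of like gene number the median was −1.21 with 8 of 14 lower (57.1%, beside 55.8% of all genes) and 6 by 2 or more (42.9%, beside 17.4%). Its late July value was −0.54 with 9 of 14 lower (64.3%), which is nearer to 0 than the −0.89 and 70.3% of all genes. Without the Myelo-4 cell 96 of Jul31_2017 the late July median was 0.16. Without Myelo-4 cell 49 the 073117 median was −1.25.

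Ms4a3, a membrane protein typical of granulocyte and monocyte progenitors, had the largest difference of the list. It was at 0 to 6.53 (median 0.60) in Myelo-4 and 5.64 to 10.77 (median 8.50) in Myelo-2, and at 1.58, 6.56 and 7.73 against 3.86 to 11.33 in late July GMP. Only Myelo-4 cell 74 of the 073117 run, at 6.53, lay above the lowest Myelo-2 cell. The difference was −6.93, and −3.58 in late July GMP. Prtn3, proteinase 3, was at 0.56 to 7.96 (median 1.06) against 1.28 to 11.96 (median 8.39), with differences of −4.57 and −0.87. Mpo, myeloperoxidase, was at 2.0 to 8.11 (median 4.73) against 4.94 to 13.34 (median 8.80). Elane, neutrophil elastase, was at 2.50 to 9.45 (median 7.25) against 6.63 to 14.84 (median 9.44).

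Mpo and Elane were detected in every cell of both states, so these were differences of level. Their differences were −3.59 and −3.02, and −0.21 and −1.61 in late July GMP, where the 3 Myelo-4 cells had Mpo at 5.26, 9.77 and 10.81 and the Myelo-2 cells between 6.67 and 12.24. The lysozyme genes Lyz1 and Lyz2 went the other way with 1.0 and 1.05. The share of TPM summed over the primary granule list, which weights abundant genes, was 2.95% to 3.81% in Myelo-4 and 1.29% to 5.71% in Myelo-2, with medians of 3.37% and 2.62%. The median share was thus not lower in Myelo-4.

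Secondary granule genes had a median difference near 0. Of 23 members measured, 20 were compared, with 11 higher (55%, beside 30.1% of all genes) and 9 lower (45%, beside 69.9%). By 2 or more none was higher (beside 5.26%) and 3 were lower (15%, beside 23.1%). The median was 0.03, −0.10 in late July GMP and 0.04 in cells of like gene number. Those of all genes were −0.89, −0.89 and −0.26. The list took 22.4% to 28.7% of the TPM in Myelo-4 cells and 11.1% to 30.3% in Myelo-2 cells. Camp, the cathelicidin, differed by 0.18, Lcn2, lipocalin 2, by 0.41, and Ngp, neutrophilic granule protein, by 0.61. Fcnb, ficolin B, a lectin of the complement system, was lower, with differences of −3.69 and −2.69 in late July GMP. It was at 0.51, 1.29 and 1.32 in Myelo-4 cells 49, 63 and 74 and between 7.31 and 10.97 in the other 4. In Myelo-2 it was at 2.98 to 12.97 with a median of 10.54.

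Gfi1 itself, the gene that carries the mutation, was lower in Myelo-4. It was detected in 2 of 7 Myelo-4 cells (28.6%, exact 95% interval 3.67% to 71%) and 8 of 11 Myelo-2 cells (72.7%, 39% to 94%). In Myelo-4 6 cells were at 0 to 1.39 and cell 56 was at 6.68. In Myelo-2 cells 90, 93 and 88 were at 0 and the highest cell was at 9.41, with a median of 6.09. The difference was −3.41, and −1.35 in late July GMP, where the Myelo-4 cells were at 0, 2.33 and 7.13. These reads do not tell the mutant from another allele. Of the 30 granulocyte factors measured, 21 were compared, 2 were higher by 2 or more (Mxd1 and Bhlhe40) and 1 lower (Gfi1). That is 9.52% and 4.76% of those compared, beside 5.26% and 23.1% of all genes. The list's median was −0.60, and 0.18 in late July GMP, beside −0.89 for all genes in both. By 2 or more 4 of the 21 were higher in late July GMP and 3 lower. Cebpe, the C/EBP factor of secondary granules, chosen after its values were seen, differed by −0.61 and 0.02.

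Most mitosis genes were lower in Myelo-4. Of 62 mitosis genes measured, 54 were compared, and 53 were lower in Myelo-4 (98.1%, beside 69.9% of all genes). By 2 or more 38 were lower (70.4%, beside 23.1%). Of these 38, 37 were also lower in late July GMP, as were 79.9% of all genes lower by 2 or more. The median was −2.38, and −2.10 in late July GMP, where 70.3% of all genes compared were lower and 51 of these 54 were. Of the 54, 41 passed the filter through Myelo-2 cells alone, so these counts are partly set by the filter. Over all 62 members measured, with no filter, the mean difference was −2.46, and −2.20 in late July GMP, beside −0.15 and −0.20 over all genes of the table. In cells of like gene number the median was −1.07, with 41 of 54 lower (75.9%, beside 55.8% of all genes) and 10 by 2 or more (18.5%, beside 17.4%). The 5 Myelo-2 cells in that comparison are 71, 88, 90, 93 and 95, which include cells 88 and 90 with few mitosis genes and cell 95, described below.

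Counted per cell, 10 to 15 of the 62 mitosis genes were detected in Myelo-4 (median 12) and 7 to 53 in Myelo-2 (median 40). The late July Myelo-4 cells had 13, 15 and 26, and the Myelo-2 cells 12 to 51 (median 42). Myelo-2 cells 88 and 90, with 7 and 13, and late July Myelo-2 cell 89, with 12, lay in or below the Myelo-4 range. As a share of TPM the list took 0.115% to 0.481% in Myelo-4 and 0.117% to 2.54% in Myelo-2. Across the 11 Myelo-2 cells the mean of the compared mitosis genes followed the number of detected genes with a Pearson r of 0.67 and a Spearman rank correlation of 0.67. Across the 7 Myelo-4 cells these were −0.09 and 0. The mean and the gene number come from the same library of a cell, and no test was made.

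**Figure D2:**
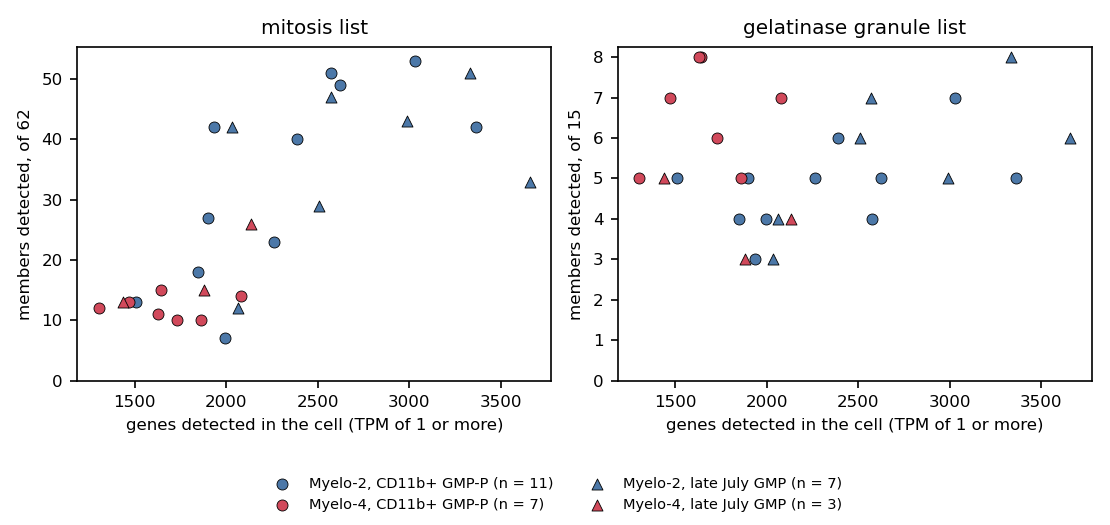
Members detected per cell of the mitosis list (left, of 62) and the gelatinase granule list (right, of 15) against the number of genes detected in the cell, for Myelo-2 (blue) and Myelo-4 (red) cells of the 073117 run (circles, labelled CD11b+ GMP-P) and of late July GMP (triangles). Myelo-4 cells of the 073117 run lie at 10 to 15 mitosis genes, while Myelo-2 cells spread from 7 to 53.

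Stmn1, which encodes the tubulin-binding protein stathmin, had the largest difference of all genes named. It was at 0 to 2.77 (median 0) in Myelo-4. In Myelo-2 cells 88 and 90 were at 0 and 1.20 and the other 9 between 8.0 and 11.55. In late July GMP the Myelo-4 cells were at 1.20, 3.73 and 9.31, and 6 of the 7 Myelo-2 cells lay between 7.14 and 11.28, with cell 89 at 1.87. The overlap thus came from a few Myelo-2 cells and 1 late July Myelo-4 cell, and the difference was −7.60, and −3.56 in late July GMP. Tubb5 and Tuba1b, tubulin chains that are not limited to the spindle, differed by −6.72 and −5.27 (−6.62 and −3.90). Tubb5 was at 0.38 to 8.45 (median 2.84) in Myelo-4 and 7.12 to 12.08 (median 10.82) in Myelo-2. Its late July cells were at 0.57, 4.95 and 5.96 in Myelo-4 against 8.83 to 11.69 in Myelo-2.

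Cdca8, which encodes borealin of the chromosomal passenger complex, was detected in no Myelo-4 cell of the run and in 8 of 11 Myelo-2 cells (72.7%), with a difference of −4.80. A count of 0 of 7 allows a share of up to 42.9%. In late July GMP the Myelo-4 cells were at 0, 0.26 and 9.51, so 1 of them held it at the level of the highest Myelo-2 cells, and the difference was −2.16. Smc4, a condensin subunit, differed by −4.35 and −3.45. Cdk1, the kinase that drives entry into mitosis, and Mki67, the proliferation antigen Ki-67, were chosen after their values were seen. Cdk1 was detected in 0 of 7 Myelo-4 and 6 of 11 Myelo-2 cells, and Mki67 in 3 of 7 and 10 of 11. Their differences were −4.08 and −3.93, and −3.35 and −2.77 in late July GMP.

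Promoters of Cdca8 and Cdk1 are shown for the cell cycle homology region, TTTGAA, through which the DREAM complex and B-MYB are known to act on mitotic genes. Cdca8 lies at chr4:124936868-124937167 and Cdk1 at chr10:69352863-69353162, both on the minus strand in RefSeq, build GRCm38.p6. Capitals mark TTTGAA, which was searched on both strands. The promoters of Prc1 and Tubb5 were searched as well and are not printed. Those of Prc1 held a match and that of Tubb5 held none.
Cdca8: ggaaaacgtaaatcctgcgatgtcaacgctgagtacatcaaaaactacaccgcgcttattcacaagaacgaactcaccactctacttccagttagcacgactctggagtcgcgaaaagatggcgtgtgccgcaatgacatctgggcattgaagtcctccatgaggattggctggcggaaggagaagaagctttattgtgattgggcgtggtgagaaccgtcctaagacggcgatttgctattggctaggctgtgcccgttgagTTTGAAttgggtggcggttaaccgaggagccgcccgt
Cdk1: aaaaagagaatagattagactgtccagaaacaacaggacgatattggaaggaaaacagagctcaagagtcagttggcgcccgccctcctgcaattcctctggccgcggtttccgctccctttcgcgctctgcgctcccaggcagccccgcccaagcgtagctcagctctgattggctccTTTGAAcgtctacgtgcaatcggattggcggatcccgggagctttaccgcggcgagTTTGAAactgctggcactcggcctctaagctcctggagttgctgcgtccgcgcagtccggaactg
TTTGAA was present in 33 of the 47 promoters (70.2%) of the mitosis genes compared, 44 of whose 54 symbols matched the table, against 17.9% of all promoters and 12.3% of those of the genes compared. Among promoters of genes lower by 2 or more it was present in 15.8%, and among those of genes higher by 2 or more in 11.7%. The E2F site TTTNNCGC was in 5.17% of all promoters, 8.55% of those of the genes compared, 12.4% of those of genes lower and 4.83% of those of genes higher by 2 or more. Matches of different motifs may overlap. The list was drawn up from known mitosis genes, so its share of TTTGAA describes the list and not the comparison.

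Over all 49 DNA replication genes measured, the mean difference was −1.49, and −2.13 in late July GMP. Of the 49, 21 were compared, and 19 of these had passed the filter through Myelo-2 cells alone, so that all 21 were lower, 11 of them by 2 or more, follows largely from the filter. Those shares, 100% and 52.4%, stand beside 69.9% and 23.1% of all genes. The median of the 21 was −2.07, −3.07 in late July GMP and −1.10 in cells of like gene number. Rrm2 and Rrm1 are the subunits of ribonucleotide reductase, which makes deoxynucleotides. Rrm2 was at 0 to 0.89 in 6 Myelo-4 cells and 6.25 in cell 52, against 0 to 11.54 (median 7.51) in Myelo-2. Its late July values were 0, 0.19 and 2.03 against 0 to 10.90. Differences were −5.19 and −7.18 for Rrm2 and −4.09 and −5.95 for Rrm1. Asf1b, a histone chaperone outside the list, was detected in 0 of 7 Myelo-4 and 9 of 11 Myelo-2 cells, and in 0 of 3 and 6 of 7 in late July GMP, with differences of −6.27 and −7.12.

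**Figure D3:**
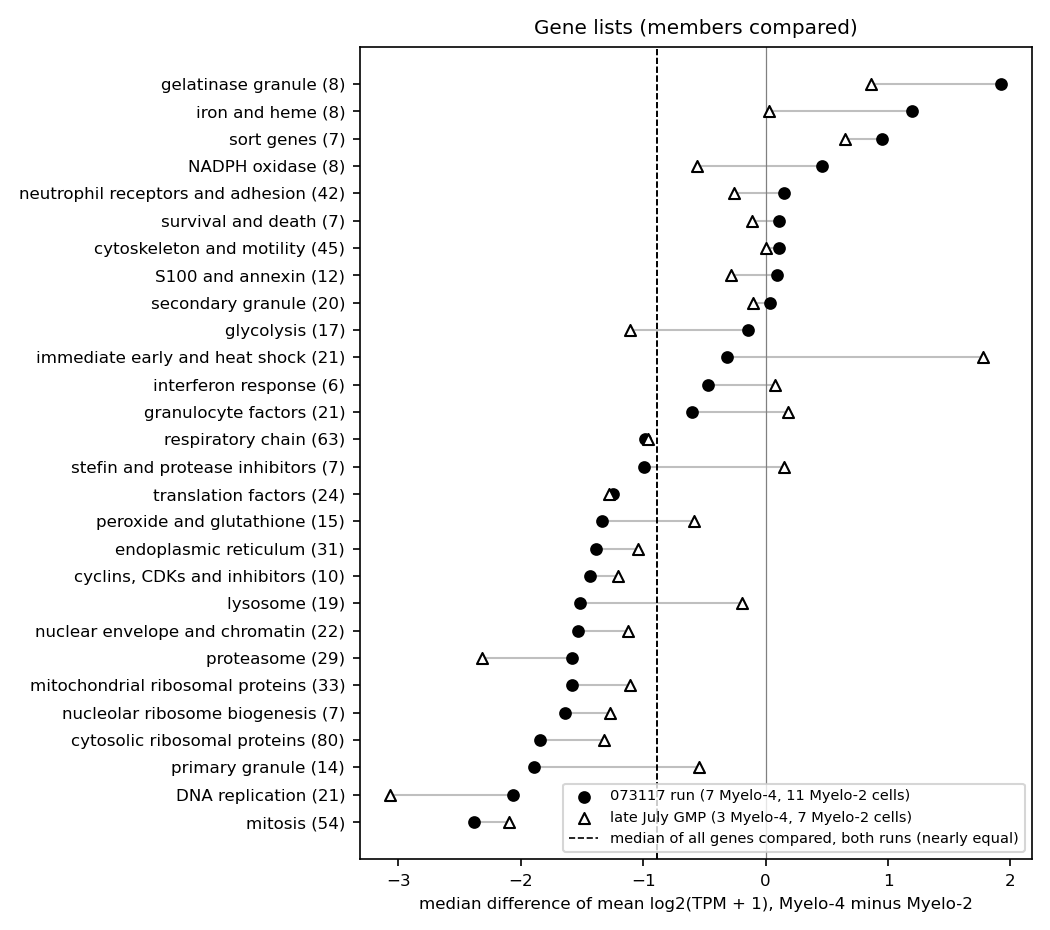
Median difference of mean log2(TPM + 1), Myelo-4 minus Myelo-2, over the compared members of each gene list with at least 5 of them, in the 073117 run (filled circles) and late July GMP (open triangles). The dashed line is the median of all 2984 genes compared, −0.89 in both runs. In the 073117 run the gelatinase granule list is at 1.93 and the mitosis list at −2.38, and 41 of the 54 mitosis and 19 of the 21 DNA replication genes had passed the filter through Myelo-2 cells alone.

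Cytosolic ribosomal protein genes were lower beyond the general shift. Of 86 cytosolic ribosomal protein genes 80 were compared, and 75 were lower (93.75%, beside 69.9% of all genes), 38 by 2 or more (47.5%, beside 23.1%). In late July GMP 78.75% were lower (beside 70.3%) and 36.25% by 2 or more (beside 25.9%). The median was −1.85, −1.32 in late July GMP and −1.46 in cells of like gene number. Only 4 of the 80 had passed through Myelo-2 cells alone. The list took 0.948% to 2.23% of the TPM in Myelo-4 and 1.22% to 9.61% in Myelo-2, where the top value was cell 95 and the next 3.44%. Many of these genes have processed copies in the genome that can take reads. Rpl14, of the large subunit, was at 0 to 2.81 in 5 Myelo-4 cells and at 8.44 or more in cells 56 and 74. In Myelo-2 it was at 0 in cell 90 and between 5.89 and 10.12 in the other 10, so the states overlapped. Its differences were −4.30, and −4.80 in late July GMP. Npm1, nucleophosmin of the nucleolus, was at 0.42 to 2.68 in all 7 Myelo-4 cells and above that in 9 of 11 Myelo-2 cells, with differences of −4.94 and −1.27. Of 77 mitochondrial ribosomal protein genes 33 were compared, 25 of them through Myelo-2 cells alone, with a median of −1.58. It was −1.11 in late July GMP and −0.20 in cells of like gene number, where all genes were at −0.26.

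Respiratory chain genes had a median near that of all genes, though more of them were lower. Their median was −0.99 over 63 of 70 genes. Of the 63, 54 were lower (85.7%, beside 69.9% of all genes) and 15 by 2 or more (23.8%, beside 23.1%). Their late July median was −0.96, with 71.4% lower (beside 70.3%) and 34.9% by 2 or more (beside 25.9%). The proteasome list had a median of −1.58 over 29 of 34 genes, and −2.31 in late July GMP, where 15 of 29 (51.7%, beside 25.9%) were lower by 2 or more. In cells of like gene number the respiratory chain and proteasome medians were −0.31 and −0.18, against −0.26 for all genes. Ndufa4, a subunit of cytochrome c oxidase, showed how single genes differed between runs. It was at 0 to 5.77 in Myelo-4 (median 1.23) and at 4.89 or more (median 8.85) in Myelo-2, a difference of −6.19. Its late July values were 6.83, 8.30 and 9.92 against 7.56 to 9.46, a difference of −0.14. Sod1, the cytosolic superoxide dismutase, had differences of −5.41 and −1.67, and Gstm1, a glutathione transferase, −4.66 and −4.68. Of the lysosome genes Ctsb, cathepsin B, differed by −4.40 and −4.49.

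The direction of the 073117 differences was then read in late July GMP. Of the 688 genes lower by 2 or more, 550 (79.9%) were also lower there and 264 by 2 or more, while 45 were higher by 2 or more. Of the 157 genes higher by 2 or more, 70 (44.6%) were also higher and 27 by 2 or more, while 30 were lower by 2 or more. With 70.3% of all genes lower and 29% higher in late July GMP, both shares stand above those of all genes. Without the Myelo-4 cell 94 of July31 the genes higher by 2 or more in late July GMP went from 208 to 366. Only 2 genes (0.067%) had no overlap between the Myelo-4 and Myelo-2 cells of the 073117 run. They were Pcbp2, an RNA-binding protein, which was lower with a difference of −5.60 (−3.98 in late July GMP), and Ppp2r5a, a regulatory subunit of protein phosphatase 2A, chosen after its values were seen. Pcbp2 was at 0 to 4.73 in Myelo-4 and 4.99 to 9.66 in Myelo-2. Ppp2r5a was detected in 5 of 7 Myelo-4 and 0 of 11 Myelo-2 cells, with a difference of 4.22 but −1.35 in late July GMP. Its remaining Myelo-4 cells were below the detection limit, as were all Myelo-2 cells, so its lack of overlap rests in part on values below 1 TPM.

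**Figure D4:**
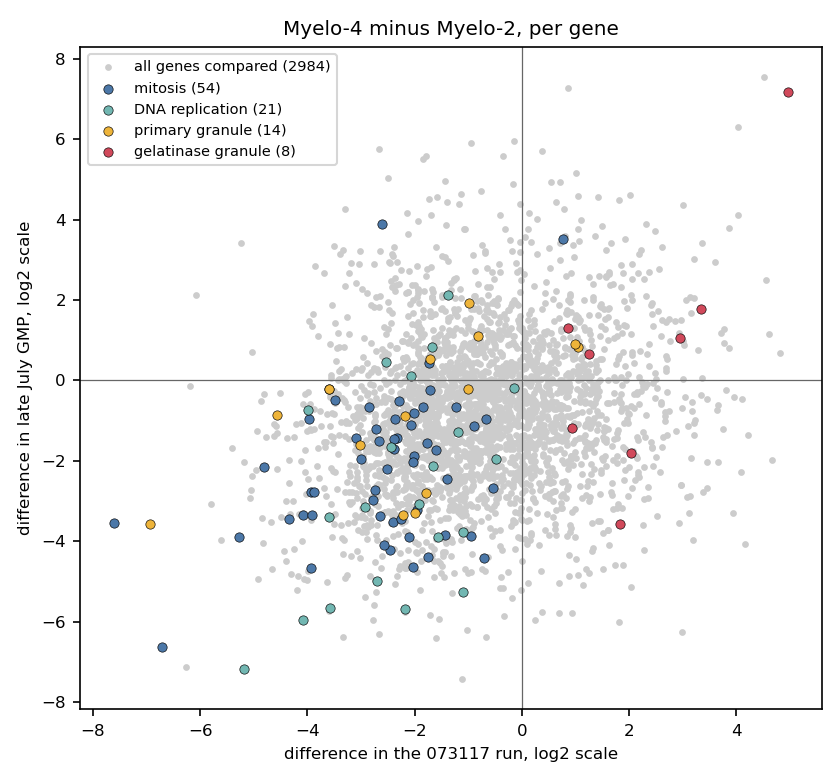
Difference of mean log2(TPM + 1), Myelo-4 minus Myelo-2, of each of the 2984 genes compared in the 073117 run (horizontal axis) and in late July GMP (vertical axis), with members of 4 gene lists in colour. Most mitosis and DNA replication genes lie in the lower left, and Mmp9 stands at the upper right with 4.97 and 7.18.

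The cells of a state were not alike. Myelo-2 cell 90 had 1509 detected genes, 13 mitosis genes, Ly6g at 8.45, Mmp9 at 10.48, Fpr1 at 10.52 and no Gfi1, values within the Myelo-4 range, but Ms4a3 at 7.97 as in other Myelo-2 cells. Myelo-2 cell 88 had Ly6g at 10.39, Stmn1 and Gfi1 at 0 and 7 mitosis genes, with Mmp9 at 0 and Ms4a3 at 8.93. Myelo-2 cell 95 stood apart on the other side. Its 20 most abundant genes took 35.2% of the TPM, Ltf was at 5.36, Mpo at 13.34 and Elane at 14.84, beside means of 3.88, 14.19 and 14.43 for these genes over the 13 Gran-2 cells of the same run and 6.70, 11.84 and 12.95 over its 5 Myelo-1 cells.

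Among the late July cells, the Myelo-4 cell 94 of Jul31_2017 had 26 mitosis genes, Stmn1 at 9.31 and Gfi1 at 7.13, and its Mmp9, at 6.28, was the lowest of the 3. The Myelo-2 cell 89 of July31 had 12 mitosis genes, Stmn1 at 1.87, Ms4a3 at 3.86 and Fpr1 at 9.79, with Gfi1 at 8.66 and Mmp9 at 0. State names and single genes therefore did not always coincide.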

How the data were processed

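Single-cell RNA-seq was made on the Fluidigm C1 with SMARTer and Nextera XT chemistry and sequenced in paired reads, per the labels' protocols. The submitters' processing notes name Bowtie2, RSEM and build mm9, with no versions. The authors deposited 1 table of log2(TPM + 1) values, whose TPM sum to 999517 to 1001450 per cell, and a table that gives the state of each cell. The method behind the state names was not found in the labels. TPM keeps no depth, so the depth per cell is unknown, and intervals on shares of cells (exact Clopper-Pearson, 95%) cover the sampling of cells only. Columns of samples outside the labels numbered 0.

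Mean log2(TPM + 1) was compared between states with Python 3.11.15, numpy 2.4.6, pandas 2.3.3, scipy 1.17.1 and matplotlib 3.10.9, using a pseudocount of 1 TPM and the filter given above. No test was run, because no animal is named and the state names may rest on these same values. No pair among 59 cells held copied values: the highest Pearson correlation over 1711 pairs was 0.695. The scripts were checked on simulated data.

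Genes were named by rule: Ltf, Ly6g, Itgam, Retnlg and Gfi1, up to 5 compared members of each of 41 lists with the largest differences, and the 20 largest differences each way among genes detected in at least 50% of cells of the higher state with the same sign in late July GMP. Some genes the rule names are not reported here. The members and lists were chosen with earlier results of these data known. Other scalings, pseudocounts (0.1 and 10), filters, a ratio of mean TPM, medians, a detection limit of 5 TPM, cells of like gene number, both runs together and leaving out each cell were tried. Leaving out late July cells was added after seeing the data.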

Additional observations from a re-analysis of the deposited data

Results flagged for a closer look

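In 2 of the 24 combinations of a group of cells and a list that were looked at, 1 cell lay far from the rest of its group by Dixon's test. Chance gives about 1 in 20. Among the Myelo-4 cells of the 073117 run, cell 52 had a mean log2(TPM + 1) of 1.96 over the DNA replication genes compared, and it is also the Myelo-4 cell with Rrm2 at 6.25. Among the late July Myelo-2 cells, cell 90 of July31 had a mean of 5.70 over the NADPH oxidase genes.

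For 11 named genes the difference between Myelo-4 and Myelo-2 was 2 or more in opposite directions in the 073117 run and in late July GMP. The difference between the runs was not tested. Higher in Myelo-4 in the 073117 run and lower in late July GMP were Id2, which blocks DNA binding by helix-loop-helix proteins (3.37 and −2.78), Psmb9, an immunoproteasome subunit (3.14 and −2.88), the cyclin Ccnd3 (3.07 and −2.90) and the Fc receptor Fcgr3 (2.35 and −2.66). Lower in the 073117 run and higher in late July GMP were Ndufb7 of respiratory complex I (−3.86 and 2.86), the hexokinase Hk3 (−3.70 and 2.67), the antiproliferative gene Btg1 (−3.33 and 3.24), and Zfp36l2, which binds AU-rich RNA (−2.45 and 2.48). The same held for the GTPase Cdc42 (−2.25 and 2.74), the proton pump subunit Atp6v0c (−2.17 and 2.16) and the cobalamin carrier Tcn2 (−2.13 and 2.21). The late July values rest on 3 Myelo-4 cells.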

How the results depend on the processing

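No paired analysis was possible because no label pairs the cells and their replicate numbers are only accession order. The count of genes higher in Myelo-4 by 2 or more, 157, was 265 without the most abundant genes, 295 and 41 with pseudocounts of 0.1 and 10, 253 by the ratio of mean TPM, 460 in cells of like gene number, 456 in late July GMP with its own filter and 94 with both runs together. The count lower by 2 or more, 688, was 1167 and 158 with those pseudocounts and 1071 in late July GMP. The median of all genes, −0.89, was −1.41 and −0.42 with those pseudocounts, −0.25 without a filter, −0.15 by medians, −0.16 in cells of like gene number and −0.40 in late July GMP, each with the filter applied to those cells. Leaving out 1 cell gave 154 to 228, 673 to 815 and −0.97 to −0.50. With 6 Myelo-4 cells the filter asks for 2 cells by construction. Leaving out 1 late July cell gave 193 to 366 higher and 727 to 918 lower, against 208 and 772. Leaving out 1 cell moved none of 174 named genes by more than the SD over cells. That outcome was fixed, because dropping 1 of 7 or 11 cells cannot move a mean that far. Of 666 list medians, 661 moved by less than that SD. However, 10 of the genes and 14 of 37 lists took both signs. None of the 132 genes with a difference of 2 or more, or of the 17 lists with a median of 1 or more, did.

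With each setting's own filter, 45 of 174 named genes and 12 of 37 list medians had the opposite sign in late July GMP, and 11 and 7 in cells of like gene number. Among genes with a difference of 2 or more and lists with a median of 1 or more either way, the sign turned in late July GMP for Tcn2 (2.21), Adam8 (−1.81), Selplg (−0.61), Anxa7 (−0.90), Prdx6 (0.80), Id2 (−2.78), Btg1 (3.24), Ccnd3 (−2.90), Eif3e (0.0109), Eif4a2 (0.82), Uqcrb (0.71), Ndufb7 (2.86), Hk3 (2.67), Pgd (−1.13), Psmb9 (−2.88), Hsp90b1 (0.0287), Tmed2 (0.27), Myl12a (0.89), Rhog (0.34), Cdc42 (2.74), Ppp1r15a (0.82), Zfp36l2 (2.48), Atp6v0c (2.16), Fcgr3 (−2.66), Mrpl51 (−1.89), the nucleolar ribosome biogenesis list (0.24) and the only eosinophil marker compared (0.95). Under the same limits signs turned in cells of like gene number for S100a6 (0.0269), by the ratio of mean TPM for Gpx4 (0.40), Ctsl (0.28) and the eosinophil marker (0.38), and without a filter for the eosinophil list (0.0314). Both late July list values, 0.24 and 0.95, are medians over members that passed the late July filter. Over the 7 nucleolar genes of the main comparison the late July median was −1.27, with 0 higher and 7 lower. That is the sign of their main median, −1.64, so for these 7 genes the sign did not turn. The 1 eosinophil marker of the main comparison was at 0.69 in late July GMP against −1.54. The cause of the other changes was not tested.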
